A study of Mus musculus with 48 samples.

Results

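The genes described here are 10 UDP-glycosyltransferase (UGT) genes, taken by symbol from the 55414 genes of a table of liver read counts. They are Ugt2a3 (ENSMUSG00000035780), Ugt2b1 (ENSMUSG00000035836), Ugt2b5 (ENSMUSG00000054630), Ugt2b34 (ENSMUSG00000029260), Ugt2b35 (ENSMUSG00000035811), Ugt2b36 (ENSMUSG00000070704), Ugt2b37 (ENSMUSG00000057425), Ugt2b38 (ENSMUSG00000061906), Ugt3a1 (ENSMUSG00000072664) and Ugt3a2 (ENSMUSG00000049152). Every one of the 10 had a row and passed the filter on low counts, which left 15414 tested genes. By symbol, 8 of them belong to UGT family 2, the UDP-glucuronosyltransferases, and 2 to UGT family 3. RNA was sequenced from the livers of 48 FCG mice on a high-fat diet (HFD), each mouse giving 1 library, in 8 groups of 6. In the FCG model Sry, the testis-determining gene, is deleted from the Y chromosome (written Y-) and supplied by an autosomal transgene (SryTg), so that gonad type and sex chromosomes are inherited separately. The groups were XX and XY- mice, which have ovaries (XX Ov, XY Ov), and XX;SryTg and XY-;SryTg mice, which have testes (XX Te, XY Te), each with intact gonads (Intact) or after gonadectomy (GDX) at 75 days of age. All mice received HFD with 60% of calories from fat from 15 to 17 weeks of age. By the labels, intact mice were fed HFD for 11 weeks and GDX mice for 15 weeks, while the study's methods give a shorter time for intact and a longer one for GDX mice. By either account gonadectomy, time on HFD and age at collection differ together and cannot be told apart. The study's methods call the intact and the GDX mice separate cohorts, so any other difference between cohorts cannot be told apart from these either.

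UGT enzymes sit in the membrane of the endoplasmic reticulum and attach a sugar to small lipophilic molecules, which makes these soluble in water and ready for export into bile or blood. The family 2 enzymes use UDP-glucuronate and act on steroid hormones, bile acids, fatty acids and many drugs, and the liver is their main site. The family 3 enzymes use other sugars. Human UGT3A1 transfers N-acetylglucosamine, for example to ursodeoxycholic acid, and human UGT3A2 transfers glucose.

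The 8 Ugt2 genes lie on chromosome 5 in the order Ugt2b34, Ugt2b1, Ugt2b35, Ugt2b36, Ugt2b5, Ugt2b37, Ugt2a3 and Ugt2b38. The RefSeq gene table has no other protein-coding gene between them, and Ugt3a1 and Ugt3a2 are neighbours in this sense on chromosome 15. Genes of other types were not looked at. The sequences around the transcription start (250 bases before to 50 after) are shown for 4 members because they carry the contrast described further on. Ugt2b5, Ugt2b37 and Ugt2b38 have closely related promoters and very different levels in the liver, and Ugt2b1 and Ugt2b38 are the members that differed between intact mice with ovaries and with testes. Capitals mark the longest run that Ugt2b5, Ugt2b37 and Ugt2b38 share base for base, which has 62 bases and lies at positions -68 to -7 from the start of Ugt2b5, -85 to -24 of Ugt2b37 and -71 to -10 of Ugt2b38. The sequences are from RefSeq on GRCm38.p6, minus strand, which is not the authors' build, at chr5:87140291-87140590 (Ugt2b5), chr5:87254739-87255038 (Ugt2b37), chr5:87424154-87424453 (Ugt2b38) and chr5:86926454-86926753 (Ugt2b1).
Ugt2b5: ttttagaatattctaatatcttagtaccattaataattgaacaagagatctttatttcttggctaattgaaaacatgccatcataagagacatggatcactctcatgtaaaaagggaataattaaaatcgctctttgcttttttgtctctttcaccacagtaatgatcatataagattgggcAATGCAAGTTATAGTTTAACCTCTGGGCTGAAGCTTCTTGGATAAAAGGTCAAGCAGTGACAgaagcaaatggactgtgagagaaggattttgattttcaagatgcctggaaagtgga
Ugt2b37: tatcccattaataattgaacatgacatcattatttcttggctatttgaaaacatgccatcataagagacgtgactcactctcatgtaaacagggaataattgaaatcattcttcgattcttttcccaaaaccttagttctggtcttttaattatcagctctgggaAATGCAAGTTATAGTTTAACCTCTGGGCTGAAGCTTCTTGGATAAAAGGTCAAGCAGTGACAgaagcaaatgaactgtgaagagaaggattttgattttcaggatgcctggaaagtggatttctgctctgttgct
Ugt2b38: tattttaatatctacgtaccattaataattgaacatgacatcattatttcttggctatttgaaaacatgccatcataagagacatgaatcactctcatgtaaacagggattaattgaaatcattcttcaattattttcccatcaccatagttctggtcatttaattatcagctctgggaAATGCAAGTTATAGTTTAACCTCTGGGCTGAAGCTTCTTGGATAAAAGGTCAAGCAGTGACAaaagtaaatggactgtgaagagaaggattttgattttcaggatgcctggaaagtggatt
Ugt2b1: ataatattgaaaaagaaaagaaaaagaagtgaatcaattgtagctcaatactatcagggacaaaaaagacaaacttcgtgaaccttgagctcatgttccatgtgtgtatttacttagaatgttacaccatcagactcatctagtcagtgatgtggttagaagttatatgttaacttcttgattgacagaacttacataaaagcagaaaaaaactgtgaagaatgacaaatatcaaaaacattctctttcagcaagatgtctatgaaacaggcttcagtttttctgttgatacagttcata

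Over the aligned windows, Ugt2b37 and Ugt2b38 were 86.9% identical, Ugt2b5 and Ugt2b38 84.2%, and Ugt2b5 and Ugt2b37 76.2%, whereas the next pair, Ugt2b36 and Ugt2b38, reached 63.9%. Promoters were matched for 9 of the 10 members, all but Ugt3a2. The letters GTTAAT, a half-site of the hepatocyte factor HNF1, were found on either strand in 2 of the 9 (Ugt2a3 and Ugt3a1) and in 7.10% of 32851 promoters of the same length. TTCNNNGAA, bound by STAT5 and BCL6, occurred in 0 of the 9 (8.30% of all promoters), ATCGAT, bound by CUX2 and HNF6, in 0 (0.925%), and CAAAGTCCA, bound by HNF4, in 0 (0.475%). None of these 4 words overlaps another within a member. These are matches of letters only.

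The same members are close in their coding sequence. In the annotated transcripts, the coding sequences of Ugt2b5 and Ugt2b38 were 95.1% identical, those of Ugt2b37 and Ugt2b38 94.1%, those of Ugt3a1 and Ugt3a2 93.3%, and those of Ugt2b35 and Ugt2b36 88.3%. Of all windows of 100 bases, 24.3% in Ugt2b5 and 24.2% in Ugt2b38 also occur in another gene, against 1.06% in Ugt2b37 and at most 0.59% in the other 7 members. Reads from such windows cannot be given to 1 gene, and multimapping reads were counted apart from the genes. Ugt2b5 and Ugt2b38 may thus have lost reads. The low counts of Ugt2b38 in particular may also hold reads of Ugt2b5 from stretches that are nearly identical.

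The libraries held 13071874 to 20045141 reads on genes (median 16577748). A floor of 3 reads per library equalled 0.150 to 0.230 CPM (a gene's reads scaled to a fixed library size), for counting error only. Reads outside genes made up 3.47% to 6.20% in intact and 8.52% to 11.3% in GDX libraries, and multimapping reads 10.7% to 18.9% and 8.59% to 10.8%. Xist was higher in every XX than in every XY mouse, and 4 Y-linked genes were lower. XX Te Intact mouse 4 had the highest Y-linked reads of the XX mice (Ddx3y at 4.20 CPM, against at least 44.3 in XY mice). XX Te Intact mouse 5 does not appear in the study's plots of Pnpla3, for which no reason was found. Both mice were kept here. The 6 hepatocyte markers were detected, with a summed level of 59042 to 137828 CPM in intact and 66157 to 102609 in GDX mice. The 3 kidney markers summed to at most 4.69 CPM. The 4 pancreas markers summed to 3.77 to 41.1 CPM, with a median of 14.2 CPM in intact and 5.58 CPM in GDX mice. Of these 4, Pnlip had 0 reads in every mouse.

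Levels below are CPM scaled by the TMM method, a normalization that removes the weight of the few most abundant transcripts. Between genes, levels are compared as CPM per kb of annotated transcript. Averaged over the 48 mice, Ugt2b36 was the most abundant Ugt2 member and made up 34.4% of the summed level per kb of the 8, followed by Ugt2b5 (24.9%), Ugt2b34 (16.1%), Ugt2a3 (12.2%), Ugt2b1 (7.96%) and Ugt2b35 (4.28%). Ugt2b37 (0.0504%) and Ugt2b38 (0.0248%) were rare, and their order turned in Te Intact mice (0.0483% and 0.0830%). The summed level was 1817 ± 823 CPM per kb in Ov Intact mice and 1838 ± 458 in Te Intact mice, and 775.5 ± 132 in Ov GDX and 797 ± 156 in Te GDX mice (SD, n = 12 each). The ranges of the 24 intact (1001 to 3603) and the 24 GDX mice (542 to 1065) overlapped only between 1001 and 1065. The share of Ugt2b36 was 40.0% in Ov Intact, 36.0% in Te Intact, 30.2% in Ov GDX and 31.5% in Te GDX mice, given without a test.

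**Figure D1:**
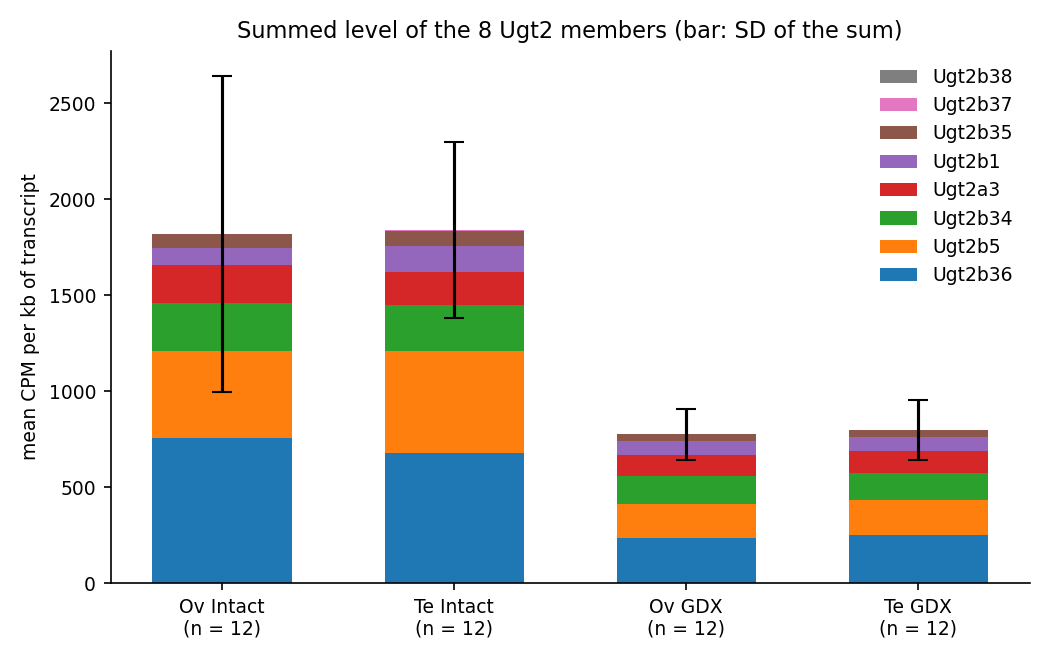
Mean level of each of the 8 Ugt2 members (CPM per kb of transcript, stacked) in 4 arms of 12 mice, with the SD of the sum as the error bar. The bars reach 1817 and 1838 in the intact arms and 775.5 and 797 in the GDX arms, and Ugt2b37 and Ugt2b38 are too low to be seen.

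In intact mice, Ugt2b38 and Ugt2b1 were lower with ovaries than with testes. The gonadal effect compares the 12 Ov Intact with the 12 Te Intact mice. In this and in all later comparisons, a log2 fold change is positive where the arm named first is higher, and p-values are from the quasi-likelihood test of edgeR, adjusted by Benjamini-Hochberg over all 15414 tested genes. Of the 10 members, 2 passed an adjusted p of 0.05 in the gonadal effect (25.3% of all tested genes), both lower with ovaries than with testes (11.3% of all tested genes). The median log2 fold change was -0.14 over the members and 0.04 over all tested genes. Markers of other cells moved with the gonads too. Of the 5 Kupffer cell and macrophage markers, 3 were higher with ovaries and 0 lower (14.1% of all tested genes were higher), with a median sum of 411 CPM in Ov Intact (220 to 722 CPM) and 244 CPM in Te Intact mice (170 to 485 CPM). Of the 4 lymphocyte markers, 2 were higher and 0 lower, with a median sum of 3.52 (1.86 to 8.59 CPM) and 1.67 CPM (1.02 to 5.37 CPM). The 1 pancreas marker that was tested was lower with ovaries (log2 fold change -0.90). Multimapping reads made up a median of 12.2% in Ov Intact and 13.9% in Te Intact libraries, and 16.4% in the XY Te Intact libraries. The part of these differences in the gonadal effect of the members was not tested.

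Ugt2b38 was close to the detection limit except in intact mice with testes. Its lowest, median and highest levels were 0.496, 3.55 and 13.7 CPM in XY Te Intact mice and 0.121, 1.94 and 3.18 CPM in XX Te Intact mice. In XX Ov Intact mice they were 0, 0.288 and 0.569 CPM, and in XY Ov Intact mice 0.0958, 0.136 and 0.239 CPM. Thus 10 of the 12 Te Intact mice lay above every Ov Intact mouse, and the exceptions were XX mouse 1 and XY mouse 6. In reads, Ugt2b38 had 547 in the 12 Te Intact and 41 in the 12 Ov Intact mice. The log2 fold change was -3.78 ± 0.45 (standard error), or 13.8-fold lower with ovaries, with an adjusted p of 1.5e-08 in edgeR's test. Mouse 2 of the XY Te Intact group alone held 176 reads, and without it the group mean was 2.81 ± 2.44 CPM (SD, n = 5) in place of 4.63 ± 4.96 (SD, n = 6) and the log2 fold change -3.42. Without XX Te Intact mice 4 and 5 it was -3.50 (adjusted p = 3.07e-07 in edgeR's test).

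Ugt2b1 was detected in every mouse and differed less between the arms. Its lowest, median and highest levels were 192, 319 and 414 CPM in XX Te Intact mice and 290.4, 310.6 and 609.8 CPM in XY Te Intact mice. They were 205, 236 and 299.9 CPM in XX Ov Intact and 175, 204 and 249 CPM in XY Ov Intact mice. The arms overlapped, with 10 of the 12 Te Intact mice above every Ov Intact mouse. The log2 fold change was -0.61 ± 0.11, or 1.53-fold lower with ovaries, with an adjusted p of 3.14e-05 in edgeR's test.

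**Figure D2:**
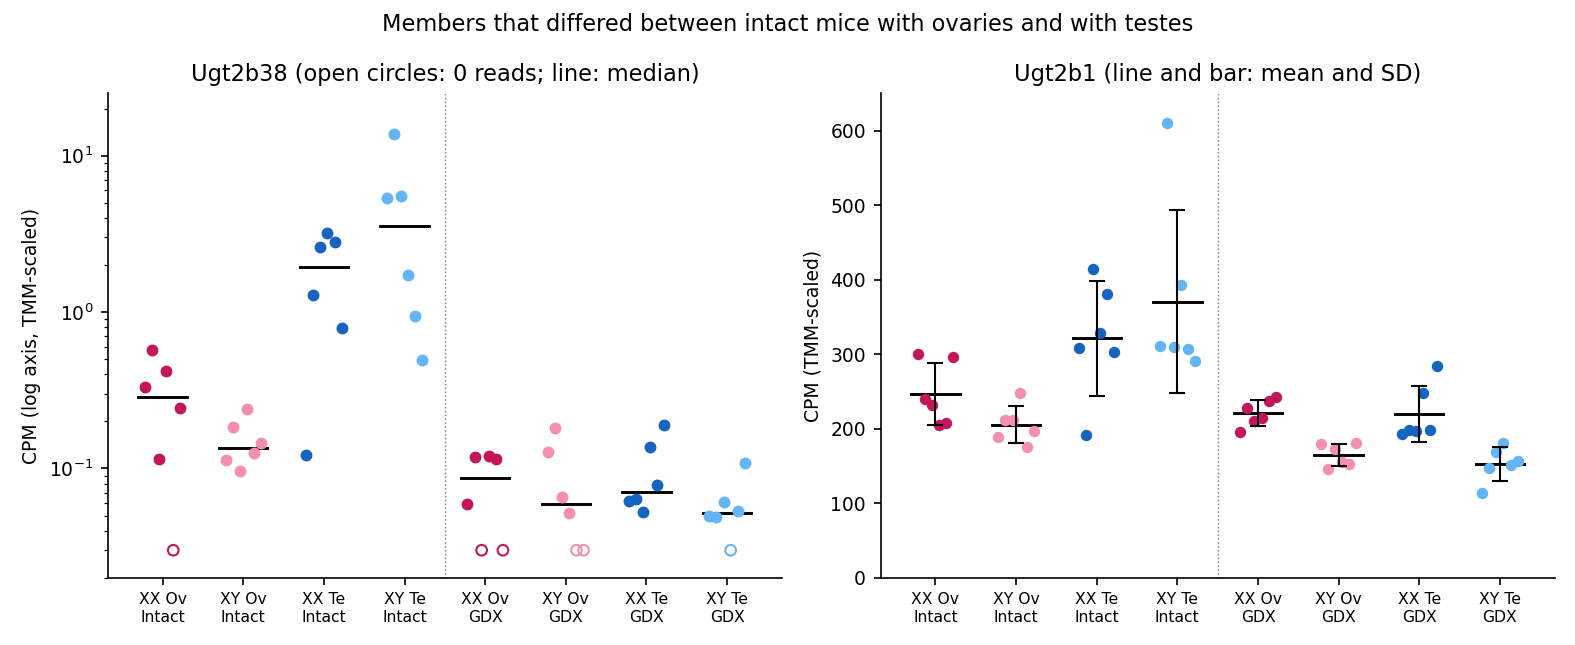
CPM (TMM-scaled) of Ugt2b38, on a log axis, and of Ugt2b1, on a linear axis, in each mouse of the 8 groups. Lines are medians for Ugt2b38 and means with SD for Ugt2b1, and open circles are mice with 0 reads. For both genes the Te Intact mice stand highest, and 10 of 12 lie above every Ov Intact mouse.

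For the other 8 members the gonadal effect missed the threshold. Their log2 fold changes ran from -0.25 (Ugt2b5) to 0.20 (Ugt2a3), with adjusted p-values of 0.174 or more in edgeR's test. With 1 surrogate variable in the model, an estimate of unlabelled variation, Ugt2b5 (-0.50), Ugt2b35 (-0.35), Ugt2b36 (-0.25) and Ugt3a2 (-0.18) passed as lower with ovaries. The 95% intervals of the log2 fold change (normal approximation) reached from -0.17 to 0.24 for Ugt2b34, from -0.22 to 0.54 for Ugt2b36, from -0.53 to 0.03 for Ugt2b5 and, widest, from -0.44 to 0.68 for Ugt2b37. They rest on an estimate of spread that includes the GDX mice, which varied less for most members, and may be too narrow for intact mice. The difference in the gonadal effect between XX and XY mice passed for 0 of 10 members and for 0.0% of all tested genes in edgeR's test. At an unadjusted p under 0.05, 6 members and 989 genes passed, and DESeq2's Wald test passed 0 members and 2 genes. The largest of these differences was that of Ugt2b37, 2.33 ± 0.57 on the log2 scale (adjusted p = 0.316 in edgeR's test). Its median was 2.89 CPM in XX Ov and 1.49 in XX Te Intact mice but 0.763 in XY Ov and 1.92 in XY Te Intact mice, and the ranges of XX Ov (1.56 to 7.21 CPM) and XY Ov mice (0.383 to 1.60 CPM) overlapped only at their ends.

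Castrated mice had lower levels of all 10 members than intact mice with testes. The castration effect compares 12 Te GDX with 12 Te Intact mice, and it shares the Te Intact mice with the gonadal effect, as the ovariectomy effect shares the Ov Intact mice. All 10 passed (63.3% of all tested genes passed), each lower after castration (29.9% of all tested genes). The median log2 fold change was -1.06 over the members against 0.07 over all tested genes. Since these are bulk samples, less RNA per cell and fewer cells of a type cannot be told apart.

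Ugt2b38 fell most. In the 12 Te GDX mice it had 15 reads in all, with 0 to 3 reads per mouse, against 547 reads in the 12 Te Intact mice, and 11 of the Te Intact mice lay above every Te GDX mouse. The log2 fold change was -5.17 ± 0.52, or 36.0-fold (adjusted p = 8.2e-11 in edgeR's test), a size that rests on counts at the detection limit after castration. Without XY Te Intact mouse 2 it was -4.81, and without XX Te Intact mice 4 and 5 it was -4.89. Of the 24 GDX mice, 2 had 3 or more reads and 5 had 0.

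Among the abundant members, Ugt2b5 and Ugt2b36 changed most. Ugt2b5 had a lowest, median and highest level of 565, 978 and 1345 CPM in Te Intact and of 215, 321 and 489.7 CPM in Te GDX mice, and the arms did not overlap. Its log2 fold change was -1.55 ± 0.15 (adjusted p = 1.52e-11 in edgeR's test). Ugt2b36, the most abundant member, had 472, 1295 and 1968 CPM in Te Intact and 327, 462 and 636 CPM in Te GDX mice, with 11 of 12 Te Intact mice above every Te GDX mouse. Its log2 fold change was -1.45 ± 0.20. Ugt2b35, its neighbour and closest relative in coding sequence, did not overlap either (167 to 380.1 CPM against 78.6 to 159 CPM) and changed by -1.21 ± 0.13. Complete separation in this direction held for 2 of the 10 members and for 2.26% of all tested genes.

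Ugt2b1 changed by -0.91 ± 0.11 (192, 310.6 and 609.8 CPM in Te Intact, 114, 187 and 284 CPM in Te GDX mice) and Ugt2b34 by -0.80 ± 0.11. Ugt2a3, a member whose human counterpart conjugates bile acids, changed by -0.59 ± 0.17, and by -0.33 with 1 surrogate variable (adjusted p = 0.00149 in edgeR's test). The rare Ugt2b37 changed by -1.52 ± 0.31, from 314 reads in the 12 Te Intact to 121 in the 12 Te GDX mice. The family 3 members changed least, Ugt3a1 by -0.43 ± 0.10 (52.8 to 94.2 against 40.7 to 85.1 CPM) and Ugt3a2 by -0.36 ± 0.08 (377 to 529.9 against 265 to 501 CPM), with arms that overlapped.

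Ovariectomized mice had lower levels of 9 members than intact mice with ovaries. In the ovariectomy effect, 12 Ov GDX against 12 Ov Intact mice, 9 of the 10 members passed (69.4% of all tested genes passed), each lower after ovariectomy (33.4% of all tested genes). The median log2 fold change was -0.96 over the members and 0.06 over all tested genes. Ugt2b36 changed most, from 618.5, 1064 and 2993 CPM (lowest, median, highest) in Ov Intact to 357, 438 and 561 CPM in Ov GDX mice, with no overlap. Its log2 fold change was -1.70 ± 0.20 (adjusted p = 1.34e-09 in edgeR's test). Ugt2b5 did not overlap either (507 to 1718 against 241 to 462 CPM) and changed by -1.35 ± 0.15. Such separation held for 8.06% of all tested genes.

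The remaining log2 fold changes after ovariectomy were -1.37 ± 0.30 for Ugt2b37, -1.04 ± 0.13 for Ugt2b35, -0.87 ± 0.17 for Ugt2a3 and -0.78 ± 0.11 for Ugt2b34. The family 3 members again changed little, Ugt3a2 by -0.31 ± 0.08 and Ugt3a1 by -0.25 ± 0.10. Ugt2b1 changed by -0.24 ± 0.11, with medians of 212 CPM in Ov Intact and 188 CPM in Ov GDX mice (adjusted p = 0.0432 in edgeR's test), a call that was lost with library totals in place of TMM (-0.02, adjusted p = 0.891). Ugt2b38 did not pass in edgeR's test (-1.47 ± 0.71, adjusted p = 0.0641) but did in DESeq2's Wald test (-1.57, adjusted p = 0.0177), with 41 reads in the 12 Ov Intact and 14 in the 12 Ov GDX mice, both close to the detection limit. The calls of Ugt3a1 and Ugt3a2 were likewise lost with library totals (-0.02 and -0.08), a scaling under which the median of all tested genes stood at 0.27 after castration and after ovariectomy, 0.20 and 0.21 above its value with TMM. With 1 surrogate variable in the model, 4 calls were lost after ovariectomy, those of Ugt2b37 (-0.59, adjusted p = 0.0552 in edgeR's test), Ugt2b1 (-0.13, adjusted p = 0.339), Ugt3a1 (-0.14, adjusted p = 0.258) and Ugt3a2 (-0.14, adjusted p = 0.0668). In that model Ugt2b36 changed by -0.90, Ugt2b5 by -0.86, Ugt2b34 by -0.45 and Ugt2a3 by -0.24, each of which passed.

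**Figure D3:**
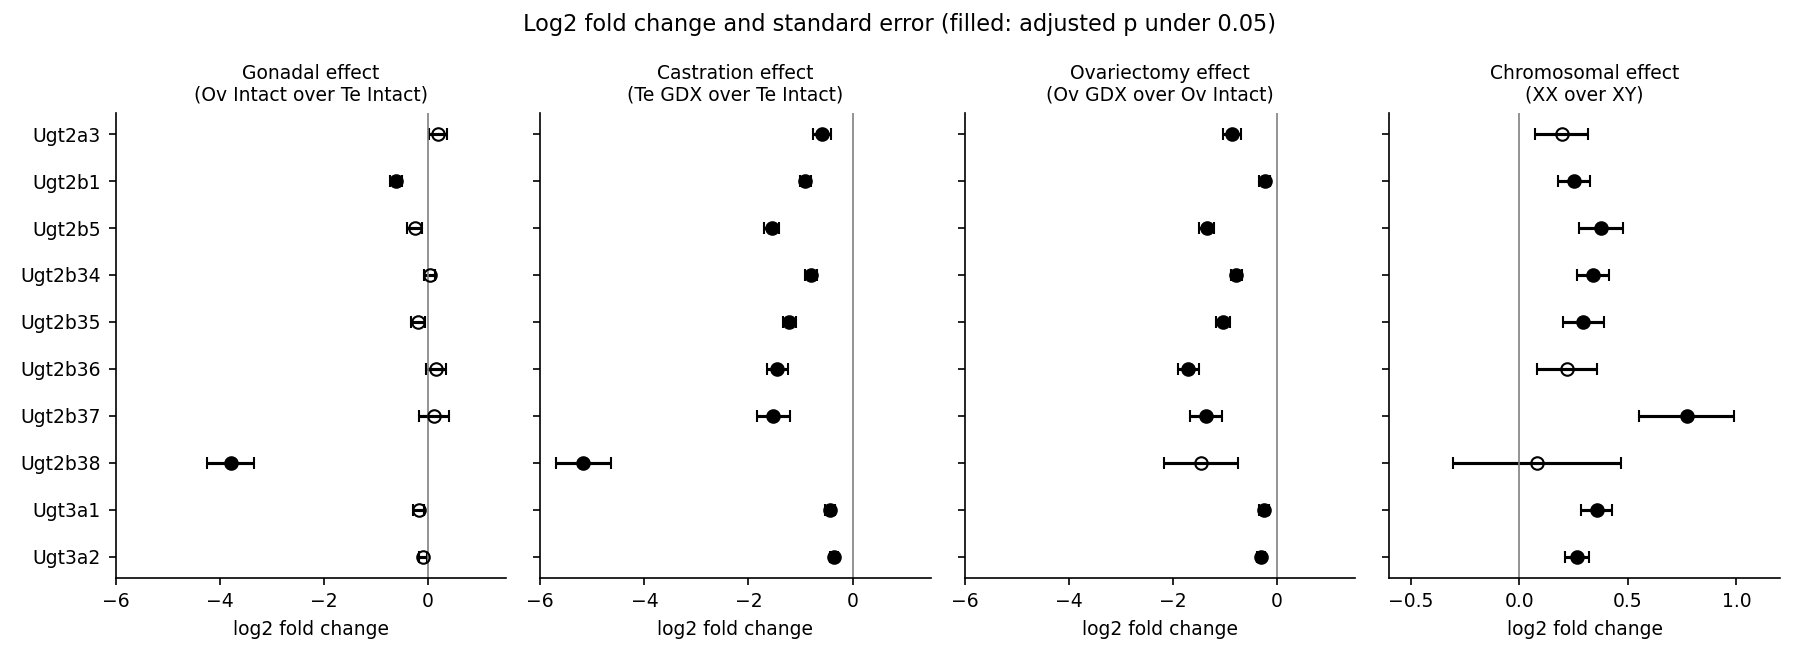
Log2 fold change of each member with its standard error in the gonadal, castration, ovariectomy and chromosomal effects, filled where the adjusted p was under 0.05. The castration effect is filled and negative for 10 members and the ovariectomy effect for 9, whereas the gonadal effect is filled for Ugt2b1 and Ugt2b38. The fourth panel has a finer scale.

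Castration and ovariectomy differed in their effect on Ugt2b1 and Ugt2b38. This difference equals, by construction, the gonadal effect minus the comparison of Ov GDX with Te GDX mice. It is therefore not independent of the gonadal effect. The test of the difference passed for 2 members (5.6% of all tested genes), Ugt2b1 (-0.67 ± 0.15 on the log2 scale, adjusted p = 0.00394 in edgeR's test) and Ugt2b38 (-3.70 ± 1.09, adjusted p = 0.0346), both with the larger change after castration. That of Ugt2b38 was lost when any of 5 Ov GDX mice was left out (XX mice 2, 4 and 5, XY mice 1 and 2, adjusted p of 0.0622 to 0.0915) and without XX Te Intact mice 4 and 5 (adjusted p = 0.0527). For the other 8 members the difference ran from -0.20 (Ugt2b5) to 0.28 (Ugt2a3) and did not pass, although that of Ugt2b5 did with 1 surrogate variable (-0.47, adjusted p = 0.00895). After GDX, the difference between mice that had had ovaries and testes passed for 0 of 10 members in edgeR's test (0.0908% of all tested genes), with 0 members by DESeq2's Wald test and 0 at an unadjusted p under 0.05. The intervals there reached from -0.15 to 0.27 for Ugt2b1 and from -0.33 to 0.23 for Ugt2b5, while Ugt2b38 had 14 and 15 reads in the 12 mice of each arm.

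Some markers of cell types and the make-up of the libraries moved with GDX too, and the marker sets did not all move in the same direction. The 4 neutrophil markers had a median summed level of 18.8 CPM in intact (1.52 to 781 CPM) and 1.84 CPM in GDX mice (0.0787 to 67.5 CPM). Of the 3 tested, 2 were lower after castration and 3 after ovariectomy (29.9% and 33.4% of all tested genes). The 6 hepatocyte markers had 95643 (59042 to 137828 CPM) and 88360 CPM (66157 to 102609 CPM). Of these, 1 was higher and 2 lower after castration, and 1 higher and 3 lower after ovariectomy. The 4 endothelial markers summed to a median of 127 CPM in intact (94.1 to 203 CPM) and 177 CPM in GDX mice (103 to 288 CPM). Of these, 2 were higher after castration and 1 after ovariectomy, and 0 lower (33.4% and 36.0% of all tested genes were higher). Of the 5 Kupffer cell and macrophage markers, 2 were higher and 1 lower after castration, and 1 higher and 2 lower after ovariectomy. Of the 4 lymphocyte markers, 1 was higher after castration and 1 lower after ovariectomy. The 1 tested pancreas marker was lower after both (-1.76 and -0.99). Reads outside genes made up 3.47% to 6.20% of intact and 8.52% to 11.3% of GDX libraries, which did not overlap. The part of these differences, and of the share of multimapping reads, in the lower levels of the members was not tested.

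**Figure D4:**
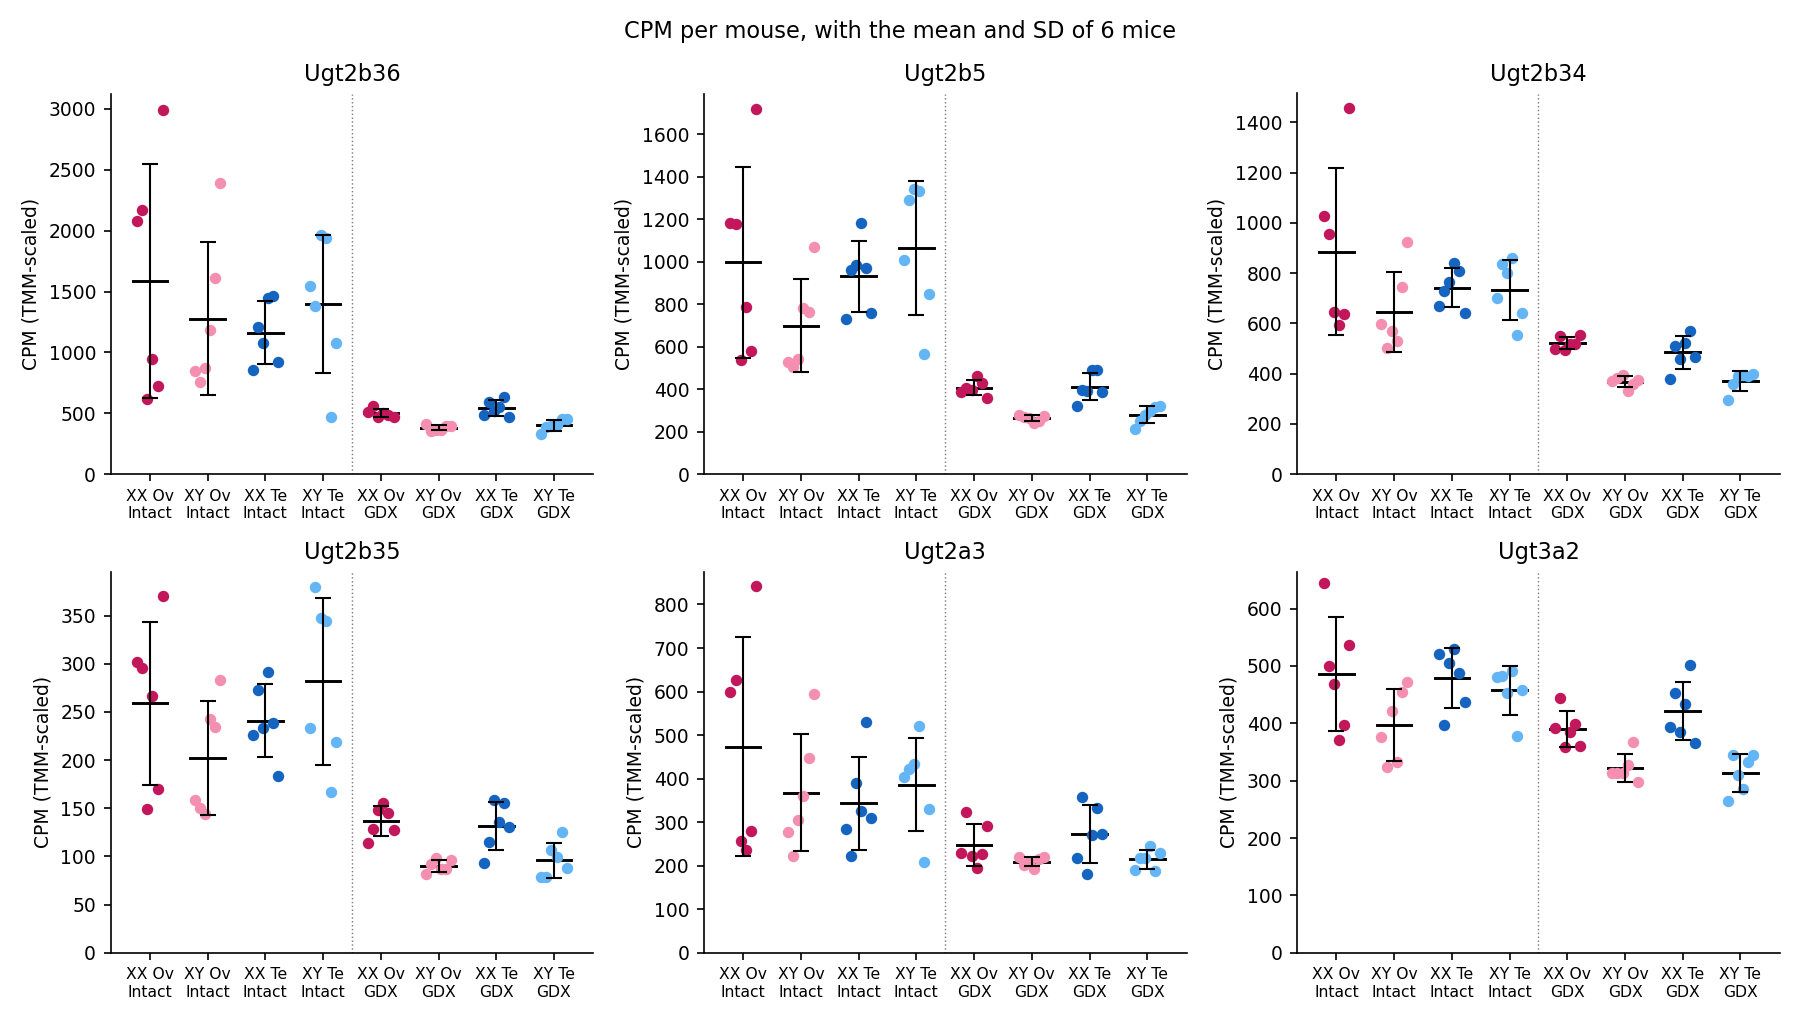
CPM (TMM-scaled, linear axes from 0) of Ugt2b36, Ugt2b5, Ugt2b34, Ugt2b35, Ugt2a3 and Ugt3a2 in each mouse of the 8 groups, with the mean and SD of 6 mice. For each gonad and chromosome type the mean of GDX mice, right of the dotted line, is below that of intact mice, and among GDX mice the XX group means lie above the XY group means on this scale.

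Ugt2b36, Ugt2b5 and Ugt2a3 varied more within every intact group than within any GDX group, which held for 3 of the 10 members. The coefficient of variation (SD as a percentage of the mean, n = 6) of Ugt2b36 was 60.8% in XX Ov, 49.3% in XY Ov, 22.2% in XX Te and 40.6% in XY Te Intact mice, and 5.69% to 11.7% in the GDX groups. For Ugt2b1 it was 12.3% to 33.2% in the intact and 8.11% to 17.1% in the GDX groups, for Ugt3a1 14.9% to 20.7% and 8.99% to 19.5%, and for Ugt2b38, near the detection limit, 35.0% to 107% and 56.0% to 101%. Each intact group set beside the GDX group of the same gonad and chromosomes gave the wider spread in 33 of 40 pairs of a member and a group. These counts were not made over all tested genes, so they are not given as a trait of the members. Over the 2715 tested genes with a mean of at least 50 CPM, the median coefficient was 15.5% to 26.3% in the intact and 7.18% to 10.004% in the GDX groups, so that the median spread was wider in intact mice over these genes too. The XX Ov Intact mice held the widest range of Ugt2b36, from 618.5 to 2993 CPM, and mouse 6 of that group was also the highest of its group for Ugt2b5, Ugt2b34, Ugt2b35 and Ugt2a3. Over the 24 intact mice, with each group centred on its mean, Ugt2b36 varied together with Ugt2b5 (Pearson's r = 0.965, permutation p = 1e-05, the smallest that the permutations can give, adjusted p = 3.6e-05; Spearman's rho = 0.943, permutation p = 1e-05, adjusted p = 4.5e-05). Without the 2 mice farthest from the median, r was 0.951. With Ugt2b1 the correlation did not pass (r = 0.262, permutation p = 0.216, adjusted p = 0.278; rho = 0.336, permutation p = 0.109, adjusted p = 0.151, and r = 0.212 without the 2 mice). Over the 24 GDX mice the values were r = 0.727 with Ugt2b5 (permutation p = 4e-05, adjusted p = 0.000103; rho = 0.662, permutation p = 0.00048, adjusted p = 0.00096; r = 0.58 without the 2 farthest mice) and r = 0.132 with Ugt2b1 (permutation p = 0.539, adjusted p = 0.606; rho = 0.112, permutation p = 0.602, adjusted p = 0.602; r = -0.073 without the 2 farthest mice). These are 4 of 18 two-sided comparisons, 9 in each cohort, over which p-values were adjusted, and the values share library and scaling.

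The chromosomal effect, 24 XX against 24 XY mice averaged over all gonad types and treatments, was small. Of the 10 members, 7 passed (36.7% of all tested genes), each higher in XX mice (21.9% of all tested genes). The median log2 fold change was 0.28 over the members and 0.05 over all tested genes. The log2 fold changes were 0.38 ± 0.10 for Ugt2b5, 0.36 ± 0.07 for Ugt3a1, 0.34 ± 0.08 for Ugt2b34, 0.29 ± 0.09 for Ugt2b35, 0.27 ± 0.05 for Ugt3a2 and 0.25 ± 0.08 for Ugt2b1. Ugt2b37 had the largest, 0.77 ± 0.22, with 656 reads in the 24 XX and 363 in the 24 XY mice. Ugt2b36, Ugt2a3 and Ugt2b38 did not pass, with 0.22 ± 0.14, 0.19 ± 0.12 and 0.08 ± 0.39. With library totals in place of TMM, the median of all tested genes moved to -0.05 and 5 members passed, Ugt2b1 (0.15, adjusted p = 0.13) and Ugt2b35 (0.20, adjusted p = 0.0601) being lost.

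The chromosomal effect passed for more members after GDX than in intact mice, but the difference between the treatments did not pass for any member. In the 24 GDX mice, 6 members passed (34.3% of all tested genes), Ugt2b5 (0.59 ± 0.14), Ugt2b35 (0.52 ± 0.13), Ugt2b1 (0.47 ± 0.11), Ugt3a1 (0.46 ± 0.10), Ugt2b34 (0.44 ± 0.11) and Ugt3a2 (0.35 ± 0.08). In the 24 intact mice, 1 passed (10.7% of all tested genes), Ugt2b37 (0.86 ± 0.28, adjusted p = 0.0395 in edgeR's test). The test of the difference gave 0 of 10 (2.12% of all tested genes), and 0 members with DESeq2's Wald test. At an unadjusted p under 0.05 in edgeR's test it named Ugt2b1, Ugt2b35 and Ugt2b5, beside 13.8% of all tested genes. For Ugt2b1 it was 0.44 ± 0.15 (adjusted p = 0.103 in edgeR's test).

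With TMM scaling, every XX GDX mouse lay above every XY GDX mouse for Ugt2b5 (322 to 489.7 against 215 to 319 CPM), Ugt2b36 (468 to 636 against 327 to 453 CPM) and Ugt2b1 (193 to 284 against 114 to 181 CPM). This held for 2.52% of all tested genes. It depended on the scaling, since TMM factors were 1.07 to 1.24 in XY GDX and 0.946 to 1.07 in XX GDX mice. With library totals the ranges overlapped for all 3, with 11, 7 and 7 of the 12 XX GDX mice above every XY GDX mouse, and the same 6 members passed, with log2 fold changes of 0.17 (Ugt3a2) to 0.42 (Ugt2b5) against a median of -0.10 over all tested genes. Ugt2b36 did not pass in the fit of all 48 mice (0.41 ± 0.20, adjusted p = 0.0992), whose estimate of spread includes the intact mice. In a fit of the 24 GDX mice alone it passed (0.36 ± 0.05, adjusted p = 4.53e-06), as did all of the 9 members that this fit could test. Over all genes, that fit passed 7297 of the 14857 it tested, against 5288 of 15414 in the fit of all 48 mice.

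**Figure D5:**
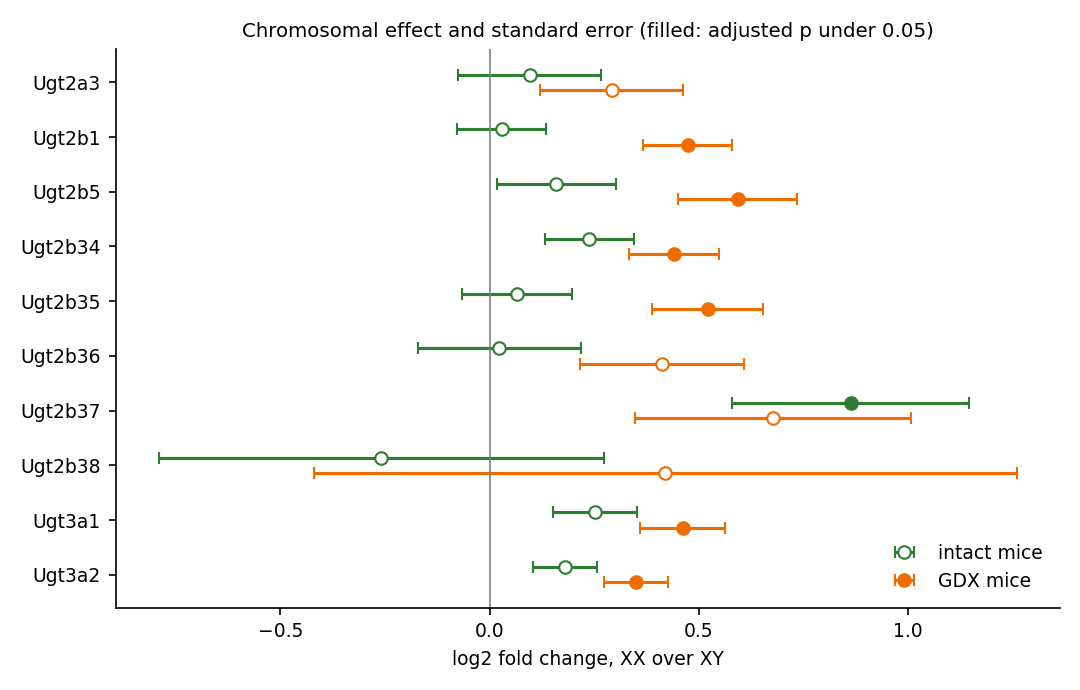
Log2 fold change of XX over XY mice with its standard error for each member, separately in intact and GDX mice, filled where the adjusted p was under 0.05. After GDX 6 members are filled, all to the right of 0, and in intact mice Ugt2b37 alone is filled.

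Macrophage markers moved with the sex chromosomes. The 5 Kupffer cell and macrophage markers summed to 112 to 485 CPM (median 225) in XX and to 224 to 744 CPM (median 455) in XY mice, and 4 of the 5 were lower in XX mice (14.8% of all tested genes). The 4 neutrophil markers had a median sum of 1.65 CPM in XX and 23.6 CPM in XY mice, and 3 of the 3 tested were lower in XX mice. Of the 4 lymphocyte markers, 2 were lower over all mice and 4 in GDX mice (14.8% of all tested genes), with a median sum of 2.06 CPM in XX GDX (1.35 to 3.68 CPM) and 4.86 CPM in XY GDX mice (2.73 to 7.13 CPM). The 4 endothelial markers had a median sum of 124 CPM in XX (94.1 to 238 CPM) and 172 CPM in XY mice (106 to 288 CPM), and 1 of them was lower in XX mice. Other sets did not go this way. Of the 4 cholangiocyte markers 1 was higher in XX mice and 0 lower. The same held for the 4 stellate cell and fibroblast markers (21.9% of all tested genes were higher). Of the 6 hepatocyte markers 0 passed. The part of these cells in the chromosomal effect of the members was not tested.

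The genes whose levels over the 48 mice were most like those of a member differed between the 3 members named here. Some of the other members had such a gene in common, as Ugt2b5 did with Ugt2b35 and Ugt3a1 with Ugt3a2. Likeness was Pearson's r of log2 CPM, sought among the 12866 genes whose log2 CPM averaged 0 or more, and is given as a description, over mice that share group and scaling. For Ugt2b1 they were Hao1 (r = 0.901), the liver glycolate oxidase, Trip4 (0.872) and Glo1 (0.870), the glyoxalase that detoxifies methylglyoxal. For Ugt2b38 they were Mup14 (0.906), Mup20 (0.887) and Mup9 (0.885), major urinary proteins, a family of near-identical genes between which reads can be exchanged. Their gonadal log2 fold changes were -5.38, -5.03 and -3.93. For Ugt2b36 they were Akr1c13 (0.988), an aldo-keto reductase, Aasdhppt (0.986) and Pex13 (0.986), whose castration log2 fold changes were -1.32, -1.08 and -1.11.

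Other UGT genes were higher, not lower, after GDX where they passed. For the lists that follow, the shares of all tested genes that passed were 33.4% higher and 29.9% lower after castration, 36.0% higher and 33.4% lower after ovariectomy, 14.1% higher and 11.3% lower in the gonadal effect, and 21.9% higher in XX mice. Of 12 other UGT genes, 11 were in the table and 7 were tested. Ugt2a1 had 0 reads in every mouse. After castration 6 of the 7 were higher and 0 lower, and after ovariectomy 4 were higher and 0 lower, with a median log2 fold change of 0.61 and 0.39 against 0.07 and 0.06 over all tested genes. In the gonadal effect 2 were higher and 1 lower with ovaries, and 4 were higher in XX mice. Ugt1a2 was 0.131 ± 0.156 CPM in Te Intact and 0.921 ± 0.292 CPM in Te GDX mice (SD, n = 12 each, log2 fold change 2.69 ± 0.35), and thus low throughout. Ugt1a9 was 32.6 ± 14.7 CPM in Ov Intact and 13.98 ± 8.44 CPM in Te Intact mice (1.30 ± 0.21). The Ugt1a genes share their last exons, so reads can be told apart only in their first exons.

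Of the 6 genes for supply, use and removal of UDP-glucuronate, 2 were higher and 3 lower after castration, and 3 higher and 2 lower after ovariectomy, with 33.4% and 29.9%, and 36.0% and 33.4%, of all tested genes. Ugp2, which makes UDP-glucose, changed by -1.08 ± 0.18 and -1.54 ± 0.19. Uxs1, which turns UDP-glucuronate into UDP-xylose, changed by -0.46 ± 0.10 and -0.62 ± 0.10. In the gonadal effect 1 of the 6 was higher and 2 lower, and in the chromosomal effect 2 were higher. Of the 4 genes that supply UDP-N-acetylglucosamine, 0 were higher and 3 lower after castration, 1 higher and 2 lower after ovariectomy, 3 lower in the gonadal effect and 2 higher in XX mice. Pgm3, a phosphoacetylglucosamine mutase, had 11.6 ± 4.58 CPM with ovaries and 17.5 ± 4.81 CPM with testes (SD, n = 12 intact mice per arm, log2 fold change -0.57 ± 0.15), and Gnpnat1, which acetylates glucosamine phosphate, changed by -0.74 ± 0.20 after ovariectomy at levels of at most 1.24 CPM.

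Among 7 transporters of glucuronides, 3 were higher and 3 lower after castration, 3 higher and 3 lower after ovariectomy, 2 higher and 4 lower in the gonadal effect and 5 higher in XX mice. The counts after castration and ovariectomy, 6 of 7 each, stand beside 63.3% and 69.4% of all tested genes. Slco1a1, an uptake transporter of the sinusoidal membrane, had 508 ± 330.4 CPM in Te Intact and 8.29 ± 9.07 CPM in Te GDX mice (SD, n = 12 mice per arm). Its castration log2 fold change was -6.10 ± 0.54. Slco1a4, another uptake transporter, was 43.8 ± 17.0 and 154.9 ± 35.4 CPM in the same arms (1.87 ± 0.17). Of 14 regulators, 8 were higher and 1 lower after castration, 9 higher and 0 lower after ovariectomy, 4 higher and 4 lower in the gonadal effect (14.1% and 11.3% of all tested genes) and 5 higher in XX mice. Cux2, a repressor of genes expressed more in male liver, was 0.652 ± 0.541 CPM in Te Intact, 24.8 ± 20.7 in Ov Intact and 44.2 ± 24.8 in Te GDX mice (castration effect 6.04 ± 0.44). Bcl6, a repressor of genes expressed more in female liver, was 47.6 ± 23.6 CPM in Te Intact and 14.5 ± 3.52 CPM in Ov Intact mice (gonadal effect -1.72 ± 0.24). The median log2 fold changes of the lists lay from -0.28 to 0.61 after castration and from -0.03 to 0.51 after ovariectomy, against -1.06 and -0.96 for the 10 members.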

How the data were processed

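Liver RNA-seq of 48 FCG mice was analysed. The sample labels gave 8 groups of 6. Libraries were made with the KAPA mRNA HyperPrep kit. Per the methods and the labels, the authors aligned the reads to GRCm39 with STAR (version 2.7.10a), counted them per gene and deposited whole-number counts without normalization, and their notes name DESeq2 (version 1.36.0). The strand setting and annotation release are not given in the sources used here, and near-identical or overlapping genes can have exchanged reads. The 4 summary lines of unassigned reads were left out of library sizes and tests. Symbols were matched to 31020 of the 55414 genes.

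The members and gene lists were chosen with earlier results of these data known. The text names all members, up to 2 genes per list with the largest log2 fold change among those that passed, and the 3 genes most like each of 3 members. Of the latter, Ugt2b1 is the member with the largest gonadal effect among those whose log2 CPM averaged 0 or more.

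A model with a mean per group was fitted to all 48 mice with edgeR (version 4.0.16, R version 4.3.3), TMM normalization, filterByExpr, robust quasi-likelihood dispersions and two-sided F tests. Genes with an adjusted p under 0.05 passed. Standard errors are the log2 fold change divided by the square root of F. No label says that mice came from separate litters or cages, so p-values measure the spread between these mice. Alternatives were DESeq2 size factors, library totals, the Wald test of DESeq2 (version 1.42.0), filters of 1 count in any mouse or 10 in every mouse, 1 surrogate variable from sva (version 3.50.0), the compared arms alone, each mouse left out and, chosen after seeing the data, XX Te Intact mice 4 and 5 left out together. Correlations used permutation tests with 100000 resamples in Python (version 3.11.15) with numpy (version 2.4.6) and scipy (version 1.17.1), on log2 CPM with a prior count of 2. Promoters came from the RefSeq table (GRCm38.p6), and transcript and coding lengths from GENCODE on NCBIM37. The fit was tested on simulated counts.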

Additional observations from a re-analysis of the deposited data

Results flagged for a closer look

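In 5 of 80 tests of 6 mice each (10 members in 8 groups), 1 mouse stood apart from the others by Dixon's test, and chance gives about 1 in 20. They were the highest mouse of Ugt2b1 in XY Te Intact (mouse 2, 609.8 CPM), the lowest of Ugt2b34 in XY Te GDX (mouse 1, 294.9 CPM), the lowest of Ugt3a1 in XY Ov Intact (mouse 4, 38.6 CPM) and in XX Te Intact (mouse 2, 52.8 CPM), and the lowest of Ugt3a2 in XY Te Intact (mouse 5, 377 CPM). XY Te Intact mouse 2 also had the highest level of Ugt2b38, 13.7 CPM. Without it the gonadal log2 fold change of Ugt2b1 was -0.52.

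The castration effect differed from the ovariectomy effect for Ugt2b1 by -0.67 and for Ugt2b38 by -3.70 on the log2 scale (adjusted p = 0.00394 and 0.0346 in edgeR's test of the difference), with levels of Ugt2b38 near the detection limit in 3 of the 4 arms. By construction, this difference is not independent of the gonadal effect of the same genes.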

How the results depend on the processing

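Of 5547 values of single members under other settings, 5472 kept their direction and side of the threshold, 50 lost a call and 24 gained one. A single value reversed, Ugt2b36 in the gonadal effect, which moved from 0.16 to -0.25 (adjusted p = 0.0350) with 1 surrogate variable. That setting moved the number of members that passed from 2 to 6 in the gonadal effect, from 9 to 5 in the ovariectomy effect and from 1 to 5 in the chromosomal effect of intact mice. A minimum of 10 counts in every mouse, which Ugt2b37 and Ugt2b38 could not meet, left 1 in the gonadal effect, 1 in castration minus ovariectomy and 0 in the chromosomal effect of intact mice. A filter of 1 count in any mouse left 1 and 0 in the last 2 of these, the fit of intact mice alone left 0 in the last, and leaving out XX Te Intact mice 4 and 5 left 1 and 0. The 10 members lower after castration ranged from 8 to 10 over the settings, and the 7 members of the chromosomal effect from 5 to 9. The cause was not tested beyond the construction of each setting.

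With each mouse left out in turn, 10 members passed after castration each time, 7 to 10 after ovariectomy, 2 to 3 in the gonadal effect, 5 to 7 in the chromosomal effect, 1 to 2 in castration minus ovariectomy, 0 to 3 in the chromosomal effect of intact mice and 6 in that of GDX mice. Ugt2b1 lost its ovariectomy call without any one of 13 mice (XX Ov Intact 1 and 6, XY Ov Intact 2, 3, 4 and 6, XY Te Intact 3, XX Ov GDX 1, 3 and 4, XY Ov GDX 2, 4 and 5, adjusted p of 0.0505 to 0.0991), and Ugt3a1 without XX Ov Intact 1 (0.0661). In the chromosomal effect, Ugt2b1 was lost without XX Ov Intact 6 (0.0523) or XY Te Intact 3 (0.0546) and Ugt2b35 without XX Ov Intact 6 (0.0770). In intact mice Ugt2b37 was lost without any one of 10 mice (XX Ov 1 and 6, XY Ov 1 to 4, XX Te 4, XY Te 4 to 6, adjusted p of 0.0512 to 0.101), Ugt3a1 gained without XX Ov 4 or XX Te 2 (0.0438 and 0.0275) and Ugt3a2 without XX Ov 4 (0.0495). Ugt2b38 gained its ovariectomy call without XX Ov Intact 5, XX Te Intact 1, XY Te Intact 2 or 6, or XY Ov GDX 2 (0.0363 to 0.0458), and Ugt2b5 its gonadal call without XX Ov Intact 6 (0.0479). No paired analysis was possible because each mouse gave 1 library and the labels number no replicates.

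Library totals raised the share of higher calls after castration from 52.7% to 69.5% and after ovariectomy from 51.9% to 66.1%, and in the gonadal effect from 55.6% to 68.1%, and lowered it from 59.8% to 28.1% in the chromosomal effect, from 56.8% to 18.7% in GDX mice, from 39.9% to 24.5% in intact mice and from 19.0% to 7.0% in their difference. Over all genes, the fit of the compared arms alone passed 1693 genes in place of 3907 in the gonadal effect, 819 in place of 1648 in the chromosomal effect of intact mice (14.2% of them higher) and 33 in place of 14 for the former gonad. A filter of 1 count in any mouse passed 506 in place of 863 in castration minus ovariectomy and lowered the share of higher calls to 40.0%, 31.2% and 22.6% in the chromosomal effect of all, of GDX and of intact mice. A filter of 10 counts passed 3491, 940 and 7 genes in the chromosomal effect after GDX, that of intact mice and the former gonad effect. DESeq2's Wald test passed 661 in place of 327 in the chromosomal effect of GDX minus intact mice and 25 for the former gonad, and 1 surrogate variable passed 2561 in the chromosomal effect of intact mice and raised the share of higher calls in GDX minus intact to 30.5%. Depth limits Ugt2b38 and Ugt2b37, whose medians were 2 and 14.5 reads per mouse.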
